A study of Mus musculus with 9 samples.

Results

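The 28 genes described here encode enzymes of cholesterol biosynthesis, the transcription factor SREBP2 with its regulators, and proteins that move sterols or control lipoprotein receptors. They were taken by gene symbol from a table of 57010 genes, each symbol matched 1 row, and all 28 passed the filter on low counts together with 13686 genes in all. RNA was sequenced from liver of male BALB/c mice in 9 libraries. Both the 3 AT3 and the 3 CPT libraries are labelled as acute liver injury from cisplatin, which damages DNA and which the design text abbreviates as DDP. The 3 CON libraries are from mice with no treatment. Atractylenolide III, a plant-derived lactone, is the agent in the series title, and no label spells out AT3. Neither dose, route and time nor the age of the mice are given. Since the labels name no separate animals, each p-value covers only how these libraries vary, and that may be technical in part.

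Cholesterol is built from acetyl-CoA through mevalonate to farnesyl diphosphate, which also feeds the dolichol, ubiquinone and protein prenylation branches, and then through squalene and a series of sterol ring steps. The liver is a main site of this synthesis and of its control. SREBP2 waits in the membrane of the endoplasmic reticulum bound to its escort Scap, and the Insig proteins hold that pair there while sterols are plentiful. When sterols run low the pair leaves for the Golgi, SREBP2 is cleaved, and its freed part activates genes of synthesis and uptake, Insig1 among them.

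The libraries held 21485021 to 28480479 estimated counts. Transcripts of the mitochondrial genome took 9.79% to 11.4% of the counts in AT3, 11.2% to 16.3% in CPT and 25.8% to 36.8% in CON. Levels below are in CPM, the usual count unit scaled to library size, after TMM scaling, which sets libraries to a common level over most genes. The 12 hepatocyte markers summed to 117356 to 126178 CPM in AT3, 86516 to 108425 CPM in CPT and 93593 to 99501 CPM in CON. They did not move together. By the edgeR test used below, 5 were higher and 4 lower in CPT against CON, beside 30.0% and 30.8% of all tested genes. In AT3 against CON 6 were higher and 4 lower, beside 31.5% and 32.9%. In AT3 against CPT 3 were higher and 0 lower, beside 2.46% and 2.22%. The 12 sinusoidal endothelial markers summed to 33.3 to 44.4 CPM in AT3, 30.5 to 39.5 CPM in CPT and 161 to 165 CPM in CON, and 12 stellate cell and fibroblast markers to 32.4 to 49.7 CPM in AT3, 51.3 to 60.6 CPM in CPT and 213 to 247 CPM in CON. The 12 Kupffer cell and macrophage markers summed to 33.2 to 38.9 CPM in AT3, 28.1 to 35.9 CPM in CPT and 51.5 to 66.4 CPM in CON, and 12 neutrophil markers to 14.9 to 15.3 CPM in AT3, 26.4 to 54.2 CPM in CPT and 4.44 to 5.11 CPM in CON. The 7 erythroid markers in the table summed to 38.4 to 44.5 CPM in AT3, 42.7 to 50.9 CPM in CPT and 798 to 908 CPM in CON, and 12 cholangiocyte markers, of which Cftr was at 0 throughout, to 41.4 to 44.3 CPM in AT3, 33.3 to 38.7 CPM in CPT and 33.5 to 39.97 CPM in CON. The 8 intestinal markers summed to 136 to 151 CPM in AT3, 189 to 209 CPM in CPT and 65.6 to 71.2 CPM in CON, with Sis, Lct, Muc2, Cdx1 and Cdx2 at 0 in all libraries. The 5 steroidogenic markers summed to 1.65 to 2.26 CPM in AT3, 2.04 to 3.53 CPM in CPT and 1.91 to 2.93 CPM in CON, with Cyp11b1 and Nr5a1 at 0. The other lists had no marker at 0 throughout. A few abundant markers can carry such a sum. Of 7 cholangiocyte markers tested, 1 was higher and 3 lower in CPT against CON. In AT3 against CON 2 were higher and 2 lower, with a median log2 fold change of -0.47. Of only 2 intestinal markers tested, 1 was called higher in each of these comparisons. The shares of all tested genes are those given above. Fewer cells of a type and less RNA per cell cannot be told apart in these bulk libraries, and the part of the marker shifts in the results below was not tested.

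The comparison of CPT with CON asks what the injured liver showed against untreated liver. In TMM-scaled counts, squalene epoxidase, methylsterol monooxygenase, isopentenyl diphosphate isomerase and mevalonate diphosphate decarboxylase transcripts rose, while those of HMG-CoA synthase, farnesyl diphosphate synthase, lathosterol oxidase and both Insig genes fell. Of these falls only that of Insig2 also passed the test on the deposited TPM, where Fdps stood at -0.01. Of the 28 genes, 12 rose and 8 fell by the edgeR quasi-likelihood test at a Benjamini-Hochberg adjusted p below 0.05, against 30.0% of all tested genes called higher and 30.8% called lower. The share of risers was 42.9% and that of fallers 28.6%, below the share of all tested genes. Log2 fold changes ran between -1.45 and 1.84 with a median of 0.26, beside a median of -0.02 over all tested genes. With an absolute log2 fold change of at least 1 also required, 2 genes were higher (Sqle and Msmo1) and 3 lower (Sc5d, Mylip and Insig1), against 13.0% and 16.0% of all tested genes. The 3 CPT libraries lay above the 3 CON libraries for 11 of the genes, against 31.5% of all tested genes, and below them for 8, against 32.7%.

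**Figure D1:**
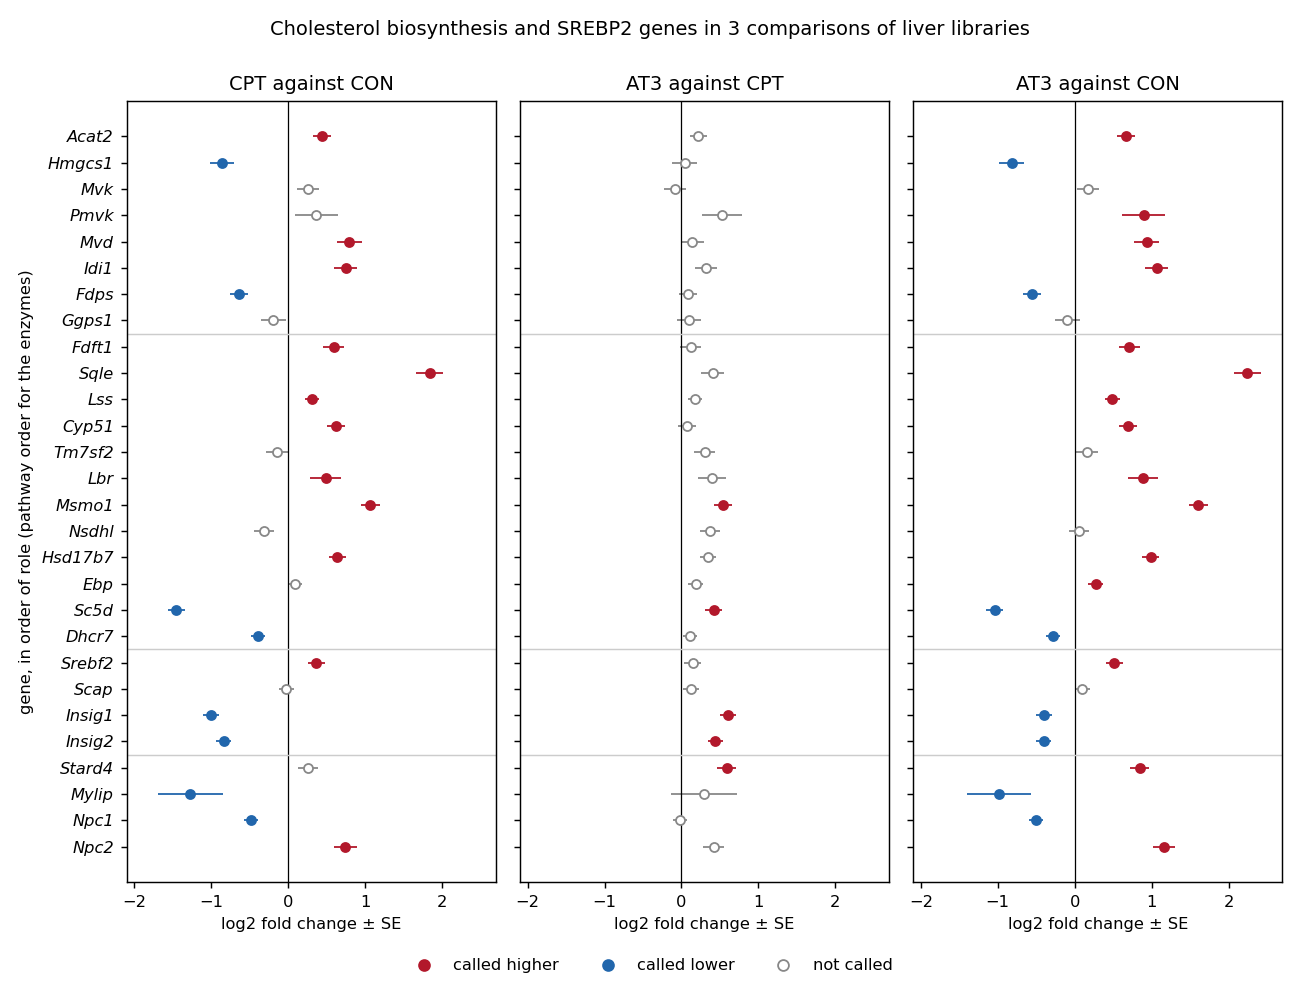
Log2 fold change with its SE for each of the 28 genes in 3 comparisons, from the edgeR fit of all 9 libraries; genes run down the page by role, with the enzymes in pathway order, and grey lines part the roles. Filled points are called at an adjusted p below 0.05: 12 higher and 8 lower for CPT against CON, 5 higher for AT3 against CPT, and 15 higher and 8 lower for AT3 against CON.

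Among the 8 genes of the first stage, 3 rose (37.5%), 2 fell (25.0%) and 3 were not called in CPT against CON. The shares of all tested genes were 30.0% and 30.8%. Hmgcs1 encodes the cytosolic HMG-CoA synthase, which makes the substrate of the rate-limiting reductase. It measured 84.1, 97.95 and 55.7 CPM in CPT, against 131, 160.3 and 140.1 CPM in CON, a log2 fold change of -0.86 ± 0.16 (SE) with adjusted p = 0.000250. Every CPT library was below every CON library, and CPT_3 was the lowest of the 9. Fdps, whose product joins isoprene units into farnesyl diphosphate, measured 57.9, 65.3 and 62.5 CPM in CPT, against 89.5, 114 and 84.8 CPM in CON (log2 fold change -0.64 ± 0.12 (SE), adjusted p = 0.000225). The groups did not overlap, and CON_2 stood above the other CON libraries. Idi1, the isomerase that supplies the activated isoprene unit, measured 28.3, 46.2 and 32.8 CPM in CPT and 19.4, 21.4 and 23.2 CPM in CON (log2 fold change 0.75 ± 0.15 (SE), adjusted p = 0.000502). CPT_2 was the highest CPT library for this gene, and all CPT libraries exceeded all CON libraries.

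Mvd, the decarboxylase that ends the mevalonate steps, had a log2 fold change of 0.80 ± 0.16 (SE) and Acat2, the thiolase that joins acetyl-CoA units, one of 0.44 ± 0.12 (SE), with adjusted p = 0.000569 and 0.00435. Acat3, a neighbouring mouse gene closely related to Acat2, was measured at 180.5 ± 11.4 CPM in AT3, 213 ± 8.05 CPM in CPT and 257 ± 13.8 CPM in CON (SD, n = 3 each), and Acat2 had counts that were not whole in all 9 libraries, so the division of reads between these genes is uncertain. The kinases Mvk (log2 fold change 0.26 ± 0.14 (SE)) and Pmvk (0.36 ± 0.28 (SE)) and the geranylgeranyl diphosphate synthase gene Ggps1 (-0.20 ± 0.16 (SE)) were not called. For Mvk the sign turned after TMM scaling of the TPM, where its log2 fold change was -0.50 with adjusted p = 0.0553 by limma, against 0.03 on the TPM as deposited.

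In the squalene and sterol ring steps, 7 of 12 genes rose (58.3%) and 2 fell (16.7%) in CPT against CON. The shares of all tested genes were 30.0% and 30.8%. Sqle encodes squalene epoxidase, a flavoenzyme that adds oxygen to squalene and is often described as another control point of the pathway. It measured 15.8, 21.98 and 17.5 CPM in CPT, against 3.43, 6.16 and 5.69 CPM in CON, 3.58-fold higher, the log2 fold change being 1.84 ± 0.18 (SE) and adjusted p = 3.20e-07. The groups were far apart, with no overlap, and the gene ranked 641 from the top among the 13686 tested. Msmo1, which oxidises methyl groups of the sterol ring, measured 33.8, 43.1 and 42.1 CPM in CPT and 16.1, 21.9 and 18.5 CPM in CON (log2 fold change 1.07 ± 0.12 (SE), adjusted p = 2.32e-06). Its groups did not overlap.

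Hsd17b7, a sterol ketoreductase, Cyp51, the lanosterol demethylase, and Fdft1, squalene synthase, rose by 0.64, 0.62 and 0.59 on the log2 scale. Lss, which closes the ring to lanosterol, had a log2 fold change of 0.31 ± 0.09 (SE). Lbr, a sterol reductase that also anchors chromatin to the nuclear lamina, had one of 0.49 ± 0.20 (SE) at adjusted p = 0.0469, with overlapping libraries. Its call was lost in 8 of 15 alternative settings, among them DESeq2 and the omission of CON_2, CON_3, CPT_2 or CPT_3. The sterol reductase gene Tm7sf2 (-0.14 ± 0.14 (SE)), the sterol dehydrogenase gene Nsdhl (-0.31 ± 0.13 (SE)) and the sterol isomerase gene Ebp (0.09 ± 0.10 (SE)) were not called.

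The late steps fell in CPM, Sc5d with the same sign and Dhcr7 with the opposite one (0.20) on the deposited TPM. Sc5d, lathosterol oxidase, measured 17.6, 21.2 and 21.8 CPM in CPT, against 53.6, 62.2 and 49.8 CPM in CON, a log2 fold change of -1.45 ± 0.11 (SE) with adjusted p = 2.91e-08, the lowest fold change of the 28 genes. The groups were far apart, with every CPT library below every CON library. Dhcr7, the reductase of the last step of one route to cholesterol, measured 37.00, 34.8 and 36.4 CPM in CPT and 45.2, 51.7 and 45.5 CPM in CON (log2 fold change -0.40 ± 0.09 (SE), adjusted p = 0.00158). The groups did not overlap, but the difference was smaller than for Sc5d.

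**Figure D2:**
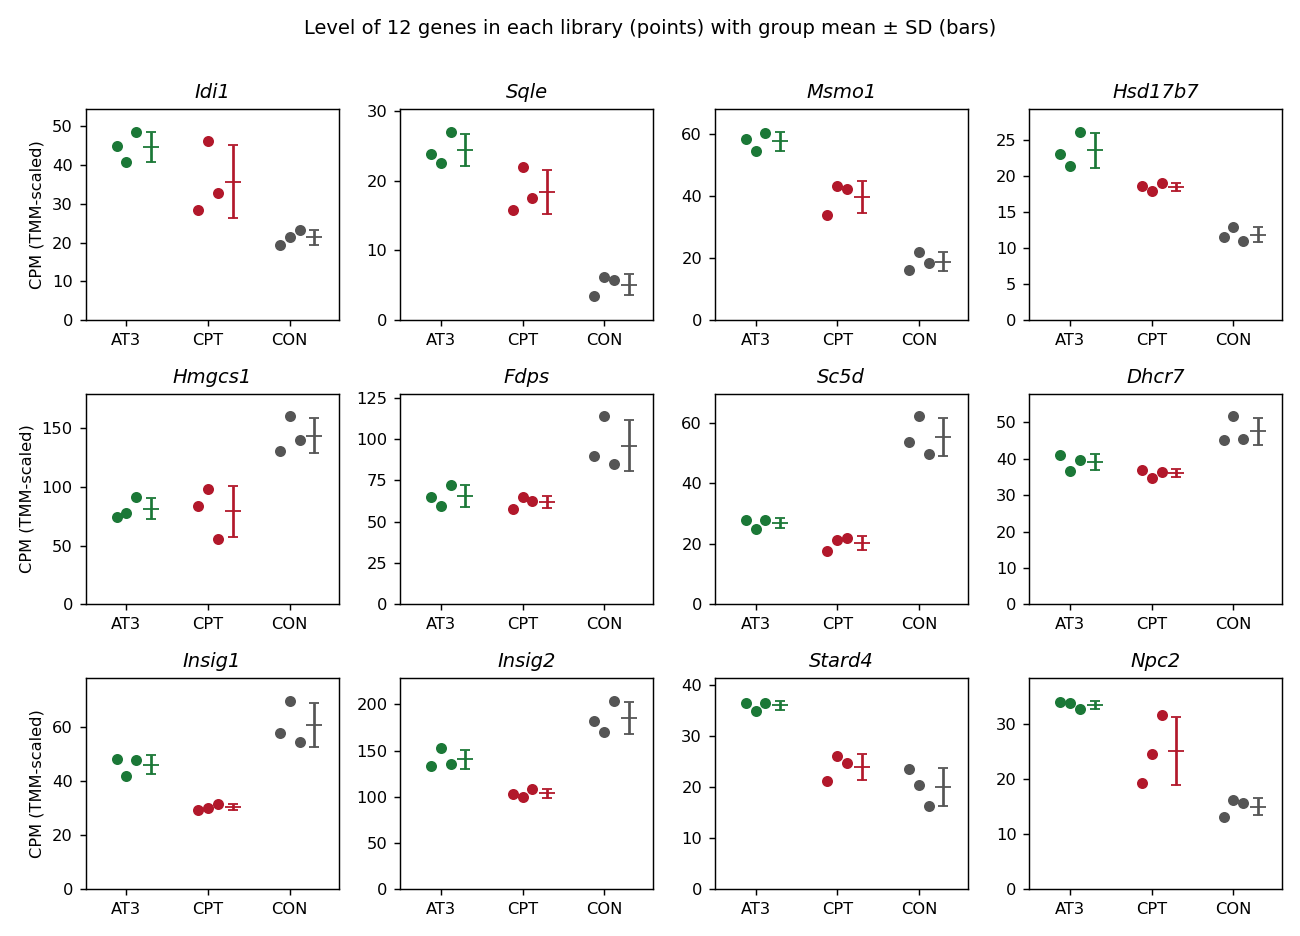
TMM-scaled CPM of 12 of the genes in each library (points, replicates 1 to 3 from left to right within a group) with the group mean and SD (bars), for AT3, CPT and CON; each axis starts at 0. Sqle, Idi1, Msmo1 and Hsd17b7 are lowest in CON, while Hmgcs1, Fdps, Sc5d, Dhcr7, Insig1 and Insig2 are highest there in CPM; on the deposited TPM Dhcr7 is higher in CPT and AT3 than in CON, and Fdps and Insig1 in AT3.

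Of SREBP2 and its 3 regulators, 1 rose, 2 fell and 1 was not called in CPT against CON. Over all tested genes 30.0% were called higher and 30.8% lower. Srebf2, the gene of SREBP2, measured 25.6, 27.8 and 29.4 CPM in CPT, against 19.00, 24.5 and 20.5 CPM in CON (log2 fold change 0.36 ± 0.11 (SE), adjusted p = 0.0101). Its groups did not overlap, yet CPT_1 and CON_2 lay close together, and without CON_1 the adjusted p rose to 0.0585. Insig1, itself a target of SREBP2, measured 29.1, 30.05 and 31.3 CPM in CPT, against 57.6, 69.6 and 54.3 CPM in CON (log2 fold change -1.01 ± 0.11 (SE), adjusted p = 9.18e-07). Insig2, the second retention protein, measured 103, 99.5 and 109 CPM in CPT, against 182, 170.1 and 204 CPM in CON (log2 fold change -0.84 ± 0.10 (SE), adjusted p = 2.41e-06). All CPT libraries were below all CON libraries for both Insig genes. Scap, the escort, measured 52.3, 50.9 and 57.6 CPM in CPT and 53.00, 51.8 and 58.9 CPM in CON, and the libraries of the groups were interleaved.

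Among the genes of sterol movement and receptor turnover, Npc2, the soluble lysosomal protein that hands cholesterol to the membrane protein Npc1, measured 19.3, 24.5 and 31.7 CPM in CPT, against 13.2, 16.1 and 15.7 CPM in CON (log2 fold change 0.74 ± 0.15 (SE), adjusted p = 0.000435). Npc1 itself measured 23.6, 25.1 and 26.3 CPM in CPT, against 37.04, 35.5 and 32.4 CPM in CON (log2 fold change -0.49 ± 0.09 (SE), adjusted p = 0.000275). The partners moved in opposite directions in CPM, each with no overlap between the groups, whereas Npc1 was 0.10 higher on the log2 scale of the deposited TPM. Mylip, a ubiquitin ligase for lipoprotein receptors, was scarce at 0.424, 0.592 and 0.461 CPM in CPT, against 0.955, 0.942 and 1.75 CPM in CON, or 12 to 19 counts in CPT and 17 to 31 counts in CON. Its log2 fold change was -1.27 ± 0.42 (SE) with adjusted p = 0.0164, and the call was lost without CON_3 or CPT_1. Stard4, a soluble sterol carrier, measured 21.2, 26.1 and 24.8 CPM in CPT and 23.7, 20.4 and 16.2 CPM in CON and was not called (adjusted p = 0.0853).

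The lower calls depended on how libraries were scaled to each other. The deposited TPM are scaled to a length for each gene and to a fixed total. With 1 length per gene, the ratio of CPM to TPM would change from CON_1 to CPT_1 by the same factor for every gene. That ratio rose for Mvk (6.46 CPM and 4.73 TPM, then 9.72 CPM and 5.85 TPM). It fell for Insig1 (57.6 CPM and 13.99 TPM, then 29.1 CPM and 10.09 TPM), so the lengths used differed between these libraries. On the deposited TPM the median log2 difference of all tested genes between CPT and CON was 0.29. By limma 16 of the 28 genes were called higher and 1 (Insig2) lower, beside 48.5% and 11.7% of all tested genes. The signs of Dhcr7 (0.20) and Npc1 (0.10) were positive there, and the falls of Sc5d (-0.51, adjusted p = 0.0517), Hmgcs1 (-0.28, adjusted p = 0.265) and Fdps (-0.01, adjusted p = 0.969) did not pass the limma test. After TMM scaling of the same TPM the counts were 10 higher and 8 lower, beside 27.8% and 29.5% of all tested genes.

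**Figure D3:**
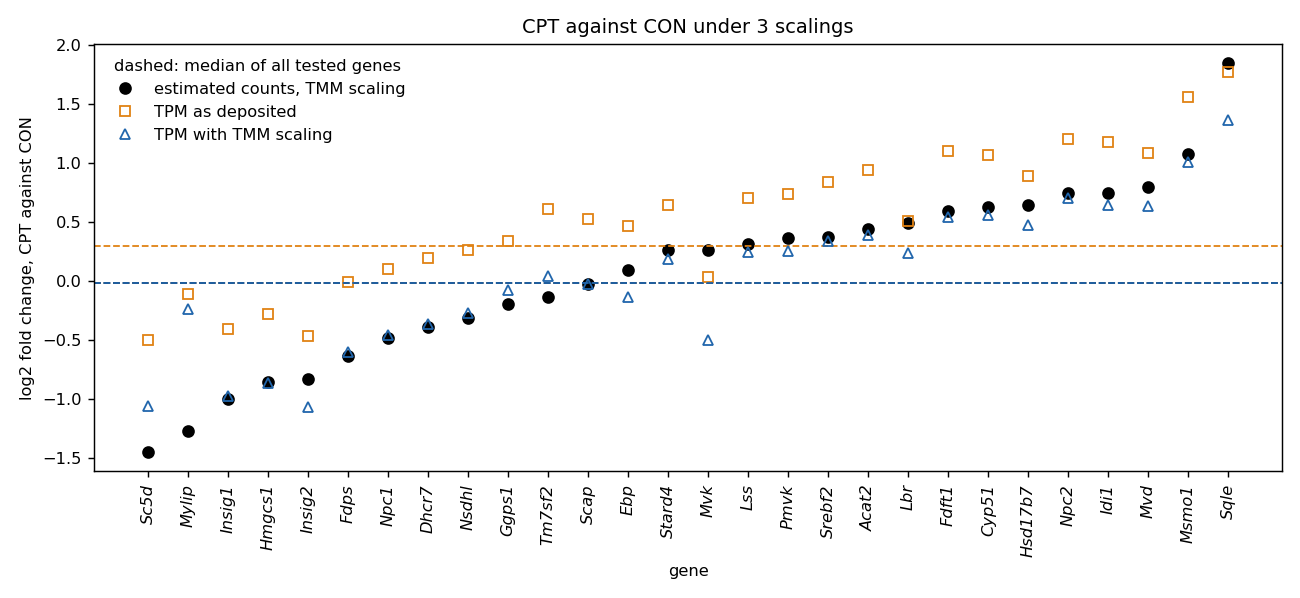
Log2 fold change of CPT against CON for the 28 genes under 3 scalings, with dashed lines at the median of all tested genes; genes run from the lowest to the highest value of the count-based fit. The deposited TPM lie above the other values for most genes, with their all-gene median at 0.29, and the TMM-scaled TPM depart most from the counts for Mylip, Mvk, Sqle and Sc5d.

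Ratios of genes within a library need no scaling between libraries, though in TPM they also rest on the gene lengths used for that library. The pairs were chosen after the counts had been seen, so they are a description. The ratio of Sqle to Fdps in TPM was 0.149 ± 0.00217 in AT3, 0.119 ± 0.0140 in CPT and 0.0223 ± 0.00627 in CON (SD, n = 3 each). The ratio of Idi1 to Fdps was 0.292 ± 0.00408 in AT3, 0.245 ± 0.04998 in CPT and 0.0974 ± 0.0183 in CON. Both ratios were lower in every CON library than in any other. The ratio of Sc5d to Msmo1 was 0.371 ± 0.00795 in AT3, 0.417 ± 0.0376 in CPT and 2.02 ± 0.440 in CON, and the ratio of Npc1 to Npc2 was 0.851 ± 0.0559 in AT3, 1.23 ± 0.253 in CPT and 3.04 ± 0.519 in CON. The ratio of Srebf2 to Insig1 separated all groups, at 0.461 ± 0.0139 in AT3, 0.676 ± 0.0152 in CPT and 0.251 ± 0.0234 in CON.

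**Figure D4:**
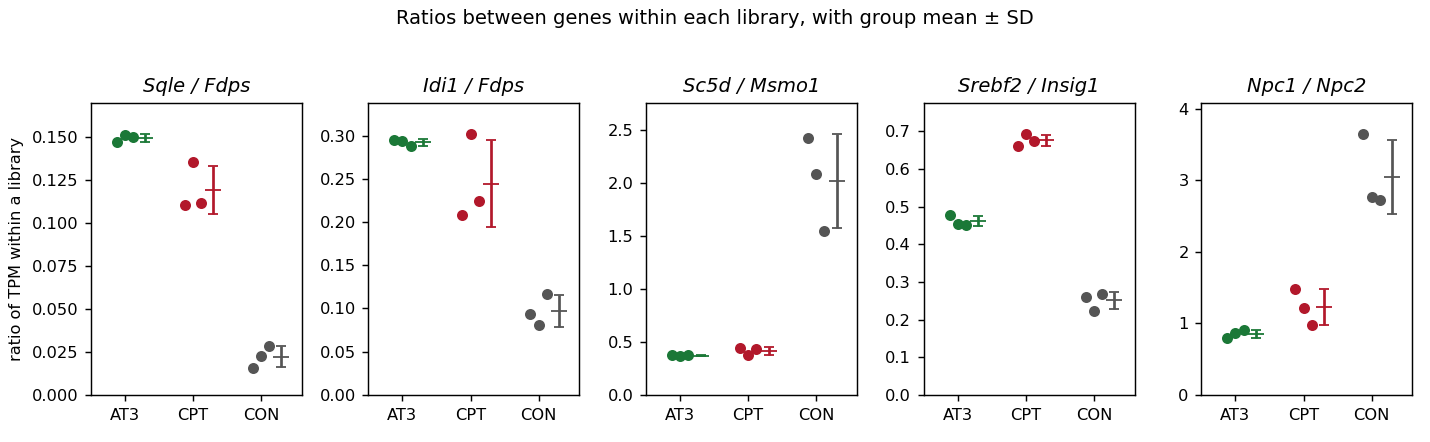
Ratio of TPM between pairs of genes within each library (points, replicates 1 to 3 from left to right) with group mean and SD (bars) for AT3, CPT and CON; each axis starts at 0. Sqle to Fdps averages 0.149 in AT3, 0.119 in CPT and 0.0223 in CON, and Srebf2 to Insig1 separates the groups at 0.461 in AT3, 0.676 in CPT and 0.251 in CON.

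The make-up of the enzyme transcripts is described here as shares, with no test. Of the summed TPM of the 20 enzyme genes, Ebp was the largest part, at 32.1% ± 0.696 in AT3, 34.7% ± 2.46 in CPT and 34.5% ± 0.712 in CON. The part of Fdps was 14.1% ± 0.554 in AT3, 14.9% ± 0.305 in CPT and 20.7% ± 0.944 in CON, and that of Hmgcs1 was 5.49% ± 0.443 in AT3, 5.94% ± 1.49 in CPT and 9.82% ± 0.445 in CON. Msmo1 made up 7.54% ± 0.174 in AT3, 5.57% ± 0.636 in CPT and 2.36% ± 0.294 in CON. The summed level of the 20 enzymes was 794 ± 50.4 CPM in AT3, 689 ± 44.8 CPM in CPT and 720 ± 82.6 CPM in CON. In CPM both AT3 and CPT overlapped CON. The sums were 445 ± 13.3 TPM in AT3, 375 ± 34.9 TPM in CPT and 278 ± 76.0 TPM in CON. CPT and CON overlapped in TPM too, with CPT_1 at 338 TPM and CON_2 at 363 TPM.

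The comparison of AT3 with CPT asks whether the livers titled AT3 differed from those titled CPT, both being labelled as injured. Transcripts of both Insig genes, of the sterol carrier Stard4, and of the enzymes Msmo1 and Sc5d rose, and no gene of the set fell. That is 5 of 28 genes, or 17.9%, against 2.46% of all tested genes called higher and 2.22% called lower. The edgeR test called 0 genes lower, DESeq2 also 0, and 0 had a lower value at unadjusted p under 0.05. The fold changes were small: 26 of 28 were above 0, where 6842 of the 13686 tested genes were, and they ran between -0.08 and 0.61 on the log2 scale with a median of 0.26 beside 0.00 over all tested genes. None reached an absolute log2 fold change of 1, which 0.365% of all tested genes did among the higher calls and 0.387% among the lower. The 3 AT3 libraries lay above the 3 CPT libraries for 14 of the genes, the 5 called and 9 others, against 14.5% of all tested genes, and below them for 0, against 12.5%.

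Insig1 measured 48.2, 41.8 and 47.7 CPM in AT3, against 29.1, 30.05 and 31.3 CPM in CPT, 1.52-fold higher, the log2 fold change being 0.61 ± 0.11 (SE) and adjusted p = 0.00530. Insig2 measured 133, 152 and 136 CPM in AT3, against 103, 99.5 and 109 CPM in CPT (log2 fold change 0.44 ± 0.10 (SE), adjusted p = 0.0188). For both genes every AT3 library lay between the CPT and the CON libraries in CPM, whereas on the deposited TPM Insig1 was higher in AT3 than in CON, by 0.27 on the log2 scale. Sc5d measured 28.02, 25.01 and 27.9 CPM in AT3, against 17.6, 21.2 and 21.8 CPM in CPT (log2 fold change 0.42 ± 0.11 (SE), adjusted p = 0.0452), again below every CON library. These are the 3 genes, of the 8 that fell in CPT against CON, that rose in AT3 against CPT, and both comparisons share the CPT libraries.

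Msmo1 measured 58.3, 54.3 and 60.3 CPM in AT3, against 33.8, 43.1 and 42.1 CPM in CPT (log2 fold change 0.54 ± 0.12 (SE), adjusted p = 0.0176). It was the 1 gene of the 12 higher in CPT than in CON that was higher again in AT3. Stard4 measured 36.6, 34.9 and 36.6 CPM in AT3, against 21.2, 26.1 and 24.8 CPM in CPT (log2 fold change 0.59 ± 0.12 (SE), adjusted p = 0.0138). No AT3 library overlapped a CPT library for either gene. Sqle measured 23.8, 22.6 and 27.04 CPM in AT3, against 15.8, 21.98 and 17.5 CPM in CPT, and did not pass the test (log2 fold change 0.41 ± 0.15 (SE), adjusted p = 0.147) although the groups did not overlap. Srebf2 (log2 fold change 0.15 ± 0.11 (SE)), Hmgcs1 (0.04 ± 0.16 (SE)) and Fdps (0.08 ± 0.12 (SE)) had overlapping libraries and were not called.

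Most of these calls depended on single libraries. Without AT3_1, AT3_2 or AT3_3 only 1 gene stayed called, Insig1 in each case, without CPT_1 there were 2 (both Insig genes), without CPT_2 there were 4 (Insig1, Stard4, Msmo1 and Idi1) and without CPT_3 6 (the same 5 genes and Npc2). Calls among all genes fell as well, to between 69 and 182 in one direction except without CPT_3. The higher calls took 0.657%, 0.729% and 0.797% of all tested genes without AT3_1, AT3_2 and AT3_3. They took 1.22% without CPT_1 and 0.845% without CPT_2. Without CPT_3 they rose to 766 genes, or 5.42%, beside 2.46% in the fit of all libraries. On the deposited TPM limma called 0 of the 28 genes, with 29 genes higher and 16 lower in all.

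In AT3 against CON, 15 genes were called higher and 8 lower, against 31.5% and 32.9% of all tested genes. The 3 AT3 libraries were above the CON libraries for 15 and below them for 8, against 34.5% and 35.9%. A log2 fold change of at least 1 was reached by Sqle, Msmo1, Npc2 and Idi1 among the higher calls, against 14.4% of all tested genes, and by Sc5d among the lower ones, against 17.9%. Sqle was 4.74-fold higher (log2 fold change 2.25 ± 0.18 (SE), adjusted p = 2.79e-08) and Msmo1 3.05-fold higher (log2 fold change 1.61 ± 0.12 (SE)). Stard4, Pmvk and Ebp joined the 12 genes that were called higher in CPT, with log2 fold changes of 0.84 ± 0.12 (SE), 0.89 ± 0.27 (SE) and 0.27 ± 0.10 (SE). Ebp lost its call without CON_1, CON_3, AT3_1 or AT3_3, and its sign turned with TMM scaling of the TPM. The 8 lower genes were those called lower in CPT, although on the deposited TPM Fdps (0.15), Insig1 (0.27), Dhcr7 (0.38) and Npc1 (0.12) had positive log2 fold changes, and the comparisons share the CON libraries. Sc5d remained lowest, with a log2 fold change of -1.04 ± 0.11 (SE), while Hmgcs1 (-0.82 ± 0.16 (SE)) and Fdps (-0.55 ± 0.12 (SE)) stood beside -0.86 and -0.64 in CPT against CON. On the deposited TPM, limma gave log2 fold changes of -0.025 for Sc5d (adjusted p = 0.923), -0.13 for Hmgcs1 (adjusted p = 0.618) and -0.063 for Insig2 (adjusted p = 0.666), none past the threshold. On the deposited TPM 20 genes were called higher and 0 lower, beside 51.3% and 12.4% of all tested genes, with the all-gene median at 0.32.

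The libraries of a group did not vary evenly. CON_2 was the highest CON library for 17 of the 28 genes, CPT_1 the lowest CPT library for 19, and AT3_2 the lowest AT3 library for 19. Without CON_2, 12 genes were called higher and 8 lower in CPT against CON, beside 28.3% and 27.7% of all tested genes.

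RefSeq promoter windows in the build GRCm38.p6, which run 250 bases before to 50 after an annotated start, were matched by symbol for 23 of the 28 genes, with 29 windows in all. A search of both strands found the box ATTGG, which binds the factor NF-Y, in 72.4% of these windows, against 37.4% of 32851 windows of all genes. The GC box GGGCGG was in 82.8% of them, against 35.7% of all windows. The sterol element core TCACNCCAC was in 1 window, against 1.24% of all windows. The longer SRE-1 motif, which contains the core, was in 0 of the 29 and in 0.0913% of all windows. Only exact matches were counted, so sterol elements that depart from these sequences would be missed. No window was matched for Sqle, Fdps, Fdft1, Stard4 and Npc1. The ATTGG box was present in at least 1 window of 21 of the 23 genes, risers and fallers alike, against 41.1% of all 27025 genes with a window. It was absent from the windows of Acat2 and Scap. The shares over all windows and genes were not limited to genes expressed in liver. The windows of 4 genes that the results turn on are shown 5′ to 3′ on the gene's strand, with each ATTGG or its reverse complement and the sterol element core in capitals. They are Hmgcs1, the gene with the core, at chr13:119690101-119690400 on the plus strand, Msmo1 at chr8:64733529-64733828 on the minus strand, Sc5d at chr9:42264251-42264550 on the minus strand and Insig1 at chr5:28071162-28071461 on the plus strand.
Hmgcs1: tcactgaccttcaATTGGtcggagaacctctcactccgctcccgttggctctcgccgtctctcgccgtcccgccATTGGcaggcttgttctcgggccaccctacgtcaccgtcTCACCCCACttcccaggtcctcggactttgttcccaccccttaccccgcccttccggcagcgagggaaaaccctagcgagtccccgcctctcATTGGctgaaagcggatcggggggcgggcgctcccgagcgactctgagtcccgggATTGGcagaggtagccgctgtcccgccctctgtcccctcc
Msmo1: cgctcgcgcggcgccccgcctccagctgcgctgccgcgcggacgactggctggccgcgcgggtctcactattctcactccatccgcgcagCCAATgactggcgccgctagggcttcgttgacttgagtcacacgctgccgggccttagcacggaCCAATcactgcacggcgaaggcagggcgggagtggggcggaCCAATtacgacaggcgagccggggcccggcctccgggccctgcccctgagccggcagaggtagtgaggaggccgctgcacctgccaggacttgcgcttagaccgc
Sc5d: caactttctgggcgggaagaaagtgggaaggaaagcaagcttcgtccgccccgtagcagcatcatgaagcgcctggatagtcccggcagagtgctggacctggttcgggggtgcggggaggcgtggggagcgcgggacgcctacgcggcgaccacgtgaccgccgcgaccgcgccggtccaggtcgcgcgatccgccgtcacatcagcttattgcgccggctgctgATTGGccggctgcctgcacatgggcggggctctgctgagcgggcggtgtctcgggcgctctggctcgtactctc
Insig1: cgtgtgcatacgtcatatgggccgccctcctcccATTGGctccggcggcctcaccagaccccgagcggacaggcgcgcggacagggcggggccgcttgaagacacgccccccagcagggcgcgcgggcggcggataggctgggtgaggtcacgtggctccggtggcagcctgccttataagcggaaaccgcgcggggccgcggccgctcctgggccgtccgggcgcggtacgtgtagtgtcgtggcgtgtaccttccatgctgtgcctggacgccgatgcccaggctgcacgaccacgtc
Hmgcs1 held 4 ATTGG boxes and the core and fell in CPT, Msmo1 held 3 boxes and rose, and Sc5d and Insig1 held 1 box each and fell in CPT and rose in AT3 against CPT.

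Genes next to the pathway were taken from 4 lists that exclude the 28 genes. Of 15 tested genes of other sterol-regulated or neighbouring steps, 5 rose (33.3%, against 30.0% of all tested genes) and 7 fell (46.7%, against 30.8%) in CPT against CON. In AT3 against CPT 3 of the 15 rose, against 2.46% of all tested genes. Por, the reductase that passes electrons to Cyp51 and squalene epoxidase, had log2 fold changes of 2.46 in CPT against CON and 0.50 in AT3 against CPT. Tmem97, a sterol-regulated membrane protein of the endoplasmic reticulum, stood at 1.83 and Srebf1, the gene of the related factor SREBP1, at -1.88 in CPT against CON. Aacs, which makes acetoacetyl-CoA from ketone bodies, stood at -1.71.

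Of 15 genes of SREBP processing and sterol sensing, 4 rose (26.7%) and 7 fell (46.7%) in CPT against CON. The shares of all tested genes were 30.0% and 30.8% for this and the next 2 lists. Nfe2l1, a membrane-bound transcription factor that senses cholesterol, had a log2 fold change of -0.76, the liver X receptor gene Nr1h2 one of -0.55 and Erlin1 one of -0.35. In AT3 against CPT 1 of the 15 was called higher (6.67%, beside 2.46% of all tested genes). It was Prkaa2, a catalytic subunit of the energy sensor AMPK, named after its value was seen (log2 fold change 0.37, adjusted p = 0.0480). Of 15 genes of the isoprenoid branches, 5 rose (33.3%) and 2 fell (13.3%) in CPT against CON, and in AT3 against CPT none passed the edgeR test, with 4 higher and 2 lower at unadjusted p under 0.05. The prenylated lamin protease gene Zmpste24 stood at 1.09, the dolichol synthesis gene Dhdds at 0.93, the ubiquinone synthesis gene Coq2 at 0.83 and the farnesyltransferase subunit gene Fnta at 0.42. Of 21 tested genes of sterol esterification, transport and efflux, 5 rose (23.8%) and 6 fell (28.6%) in CPT against CON. They included the mitochondrial membrane protein gene Tspo at 1.70, the lysosomal membrane protein gene Scarb2 at 1.46, the plasma cholesterol acyltransferase gene Lcat at 0.94 and the cellular acyltransferase gene Soat2 at -0.86.

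Positions are from the GENCODE M21 annotation of GRCm38, in which all 28 genes are protein-coding. Sqle (ENSMUSG00000022351) lies on chromosome 15 from 59315077 to 59331192, Sc5d (ENSMUSG00000032018) on chromosome 9 from 42251595 to 42264256, Insig1 (ENSMUSG00000045294) on chromosome 5 from 28071363 to 28078662 and Insig2 (ENSMUSG00000003721) on chromosome 1 from 121304353 to 121332589. Of the 28 genes, 14 overlap another annotated gene and 8 another protein-coding one over their whole spans, such as Fdft1 with Ctsb and Cyp51 with Akap9. No source states that counting used strand, so reads in a shared stretch may not have been told apart. How much of each stretch is exon was not measured. Counts were whole in all libraries for 11 of the genes and not whole in any library for 4 (Acat2, Fdft1, Cyp51 and Lbr).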

How the data were processed

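RNA-seq of mouse liver was analysed in 9 libraries, 3 each titled AT3, CPT and CON. Estimated counts, with gene lengths, and TPM were deposited by the authors in separate tables. Of the 57010 count values of a library, 7.96% to 9.55% were not whole. Which aligner and counter made them is not given in the sources used here, nor is strand. GRCm38, mm10 and GRCm39 are named per the submitters' processing notes, with no role. Library totals were 21485021 to 28480479 estimated counts, and the number of libraries limits the precision.

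Estimated counts were rounded, filtered for low counts with edgeR 4.0.16 (R 4.3.3), scaled by TMM and tested with edgeR's quasi-likelihood test in 1 fit of all libraries, adjusted by Benjamini-Hochberg over 13686 genes. Rows with a gene ID but no symbol (1606, 0.181% of counts) were kept. The TPM were tested with limma 3.58.1 on log2(TPM + 1), a scale that understates changes of low genes, and the counts also with DESeq2 1.42.0. A fold change is the group titled first over the second. The fits were tested on simulated data. All 28 genes are named, and of each other list up to 4 genes with the smallest p. The 28 genes and all lists were chosen with earlier results of these data known. No library pair agreed within sampling noise.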

Additional observations from a re-analysis of the deposited data

How the results depend on the processing

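In CPT against CON, 9 of the 12 higher calls and 1 of the 8 lower calls (Insig2) were kept in every alternative run. In AT3 against CPT 0 of the 5 higher calls were kept, and in AT3 against CON 13 of the 15 higher and 0 of the 8 lower calls. The share of calls kept over all tested genes was not computed. Lower calls over all genes in CPT against CON dropped from 4219 in the main fit to 1604 on log2(TPM + 1), while higher calls went from 4107 to 6631. Mylip in AT3 against CON lost its call in 10 of 15 alternatives, DESeq2 among them. Sc5d in AT3 against CPT also lost its call in 10 of 15. When 1 library was left out, members called higher in CPT against CON ran between 11 and 14, beside 27.8% to 30.7% of all tested genes. Members called lower ran between 7 and 8, beside 27.4% to 28.3%. In AT3 against CON the higher calls ran between 14 and 16, beside 28.8% to 30.1%, and the lower calls between 7 and 8, beside 29.1% to 30.7%. Members called higher in AT3 against CPT ran between 1 and 6, beside 0.657% to 5.42%. With an absolute log2 fold change of at least 1 required, 2 were higher and 3 lower in CPT against CON, 0 higher in AT3 against CPT, and 4 higher and 1 lower in AT3 against CON. On log2(TPM + 1) and on log2(TPM + 0.1), members called lower numbered 1 and 1 in CPT against CON, beside 11.7% and 11.6% of all tested genes. In AT3 against CON they numbered 0 and 0, beside 12.4% and 12.3%. Members called higher in AT3 against CPT numbered 0 and 0, beside 0.212% and 0.146%. With no filter on low counts 9 were higher in AT3 against CPT, beside 2.43% of all tested genes. With TMM scaling of the TPM, an alternative chosen after seeing the data, 1 was, beside 0.891%.

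Some log2 fold changes reversed on log2(TPM + 1) and log2(TPM + 0.1). In CPT against CON these were Npc1 (0.10 and 0.11), Tm7sf2 (0.60 and 0.65), Scap (0.52 and 0.57), Dhcr7 (0.20 and 0.21) and, with the smaller pseudocount, Ggps1 (0.47). In AT3 against CON they were Ggps1 (0.50 and 0.68), Npc1 (0.12 and 0.13), Insig1 (0.27 and 0.29), Dhcr7 (0.38 and 0.40) and Fdps (0.15 and 0.16). With TMM scaling of the TPM, Ebp (-0.079) and Mvk (-0.55) reversed in AT3 against CON, and the cause was not tested.

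With the replicate number as a block, 11 were higher and 8 lower in CPT against CON, beside 29.6% and 30.0% of all tested genes. In AT3 against CPT 4 were higher, beside 1.77%. In AT3 against CON 15 were higher and 8 lower, beside 31.0% and 32.2%. Same-numbered libraries had correlations of -0.0378 to 0.0762, none over 0.1, and the labels give no pairing, so the block is not used. As a hint from the data, each AT3 library correlated best with the CPT library of its number (0.0518, 0.0762 and 0.0668). The other AT3 and CPT pairs were negative. Values were centred on the mean of each group, so a positive pair pushes the others below 0, and their sign adds no support. Depth limits Mylip most, with 10 to 31 counts per library.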
